A study of Mus musculus with 4 samples.

Results

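The comparison described here is between 2 libraries of mouse embryonic stem cells that express the same fusion protein, NUP98-HOXA9: the library numbered 2 by the submitters against the library numbered 1. They are 2 of the 4 libraries of the series. The other 2, parental EB3 cells of wild-type genotype and EB3-derived cells that carry an empty vector, served as reference. Members of the comparison were the genes at 1 CPM or more in either fusion library, CPM being the expected count divided by its library's total in the usual scaling. They were 15393 of the 55401 genes listed. The gene nearest to that floor on the inside peaked at 1.00039 CPM and the nearest outside at 0.999445 CPM.

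NUP98 is a nucleoporin whose phenylalanine-glycine repeats are joined, in some acute leukaemias, to the DNA-binding homeodomain of HOXA9. Such fusions are known for holding HOX genes, the homeobox genes that lay out the body axis from head to tail, in an active state together with the cofactor MEIS1. Embryonic stem cells kept with the cytokine LIF normally have their HOX clusters silent under Polycomb, and retinoic acid opens the clusters in order from their 3′ ends. A rare and passing fraction of such cultures resembles the embryo at the 2-cell stage and transcribes Zscan4 and other genes of zygotic genome activation.

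All 4 libraries came from cells kept on gelatin in serum medium with LIF. Whether libraries 1 and 2 stand for distinct clones, pools or cultures is not stated in the labels, nor are the vector, its promoter and the species of the fused sequences. With 1 library a side there was no test and no p-value. Differences are given as ratios of CPM with 95% exact binomial intervals, which cover counting error only, and as log2 ratios of library 2 to library 1, in which a prior count of 2 is added on each side. Where 4 CPM values stand together, their order is parental, empty vector, fusion library 1, fusion library 2.

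The libraries held 19021386 to 21151729 expected counts, of which 2.03% to 2.5% lay on the mitochondrial genome. Fusion library 2 was the deepest, with 15012 genes at 1 CPM or more against 14560 in fusion library 1, 14115 in the parental library and 14158 in the empty-vector library. The 8 defining markers of mouse embryonic stem cells (Pou5f1, Sox2, Nanog, Esrrb, Zfp42, Klf4, Tdgf1 and Dppa5a) were present in every library. Their lowest level was 60.1 CPM in the parental library, 124 CPM with the empty vector, 269 CPM in fusion library 1 and 236 CPM in fusion library 2. Hoxa9, a part of the fusion, had 0 counts in both control libraries and stood at 191 and 132 CPM in fusion libraries 1 and 2. Nup98, the other part, stood at 208, 216, 312 and 307 CPM, and its ratio of library 2 to library 1 was 0.985 (interval 0.952 to 1.02). Counts per gene cannot tell transcripts of the construct from those of the endogenous loci. In bulk RNA, fewer cells of a kind and less RNA per cell cannot be told apart.

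Of the 15393 genes, 1213 (7.88%) were at least 2-fold higher in library 2 and 411 (2.67%) were at least 2-fold lower. A ratio of 4-fold or more was reached by 240 genes in the first direction and by 66 in the second. The shares of 7.88% and 2.67% are the background for the list counts given below. All 1213 and all 411 had a counting interval clear of 1. The floor and the 2-fold rule with its prior count made this nearly certain, so it adds no support to the calls. Of the higher genes, 476 (39.2%) lay under 1 CPM in library 1, and of the lower genes 149 (36.3%) lay under 1 CPM in library 2. Such genes were members only through the library where they are high and so had to differ. The same count between the control libraries, empty vector against parental, gave 766 genes higher (5.22%) and 514 lower (3.5%) of 14669. The median absolute log2 ratio was 0.30 in the fusion pair and 0.29 in the control pair, so the bulk of genes lay about equally close in both pairs.

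The fusion pair differed most among genes of low level. At a mean of 1 to 5 CPM, 21.1% of genes were 2-fold apart (18.1% in the control pair), and above 100 CPM 1.26% were (1.85% in the control pair). Longer genes leaned toward library 2: the median log2 ratio was -0.05 in the shortest length quartile of genes and 0.15 in the longest. Protein-coding genes made up 1025 of the higher and 340 of the lower genes, and among 260 long intergenic RNAs 44 were higher and 9 lower.

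**Figure D1:**
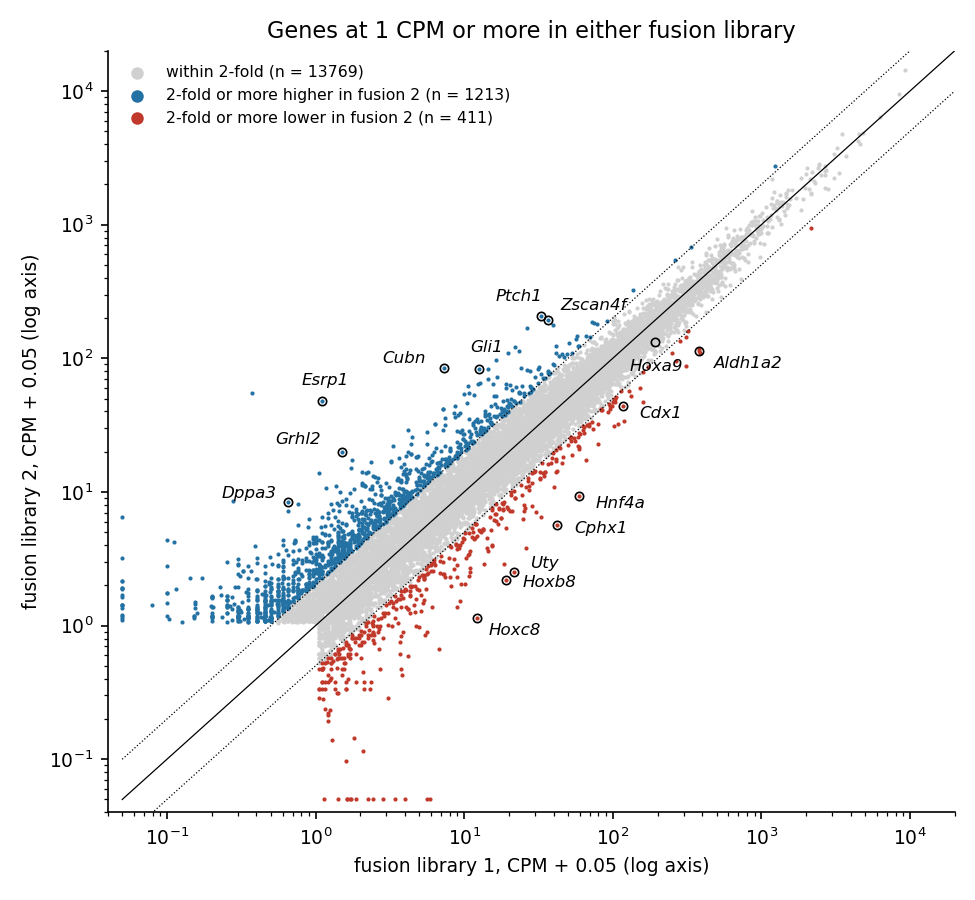
Each point is a gene at 1 CPM or more in either fusion library, with its CPM plus 0.05 in library 1 on the x axis and in library 2 on the y axis, both on log axes. The solid line marks equal levels, the dotted lines a 2-fold difference, blue the 1213 genes at least 2-fold higher and red the 411 at least 2-fold lower in library 2 with the prior count. Esrp1 and Grhl2 lie far above the line, and Hoxc8, Hoxb8 and Uty far below it.

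The HOX clusters were transcribed in both fusion libraries, and at lower levels in library 2. The sum over the HOXA genes was 2.00, 2.63, 514 and 337 CPM. This sum includes Hoxa9, a part of the fusion, whose transcripts from the construct cannot be told from those of the cluster. Hoxa9 is also among the HOXA genes counted below. For HOXB the sums were 1.40, 1.84, 78.9 and 24.5 CPM. For HOXC they were 1.45, 3.79, 43.2 and 10.6 CPM. The gap between the fusion libraries was therefore wider in HOXB and HOXC than in HOXA. In HOXA, 1 of 10 genes at the floor was 2-fold higher in library 2 and 2 were 2-fold lower, with a median log2 ratio of -0.75. In HOXB, 0 were higher and 8 of 10 lower, with a median of -1.75, and in HOXC 0 were higher and 6 of 7 lower, with a median of -2.16. The median over all 15393 genes was 0.05. All 10 HOXA genes, all 10 HOXB genes and 6 of 7 HOXC genes were nevertheless at least 2-fold above both controls in each fusion library. Most HOX genes are near 0 in the controls, so they reached the floor only through the fusion libraries.

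Hoxb8, which acts in the trunk and in blood progenitors, had 1, 1, 379 and 45 counts, or 19.12 CPM in library 1 and 2.13 CPM in library 2. It was 8.99-fold higher in library 1 (interval 6.59 to 12.5). Hoxb6 stood at 0, 0, 5.40 and 0.804 CPM, Hoxb7 at 0.100, 0.105, 4.69 and 0.946 CPM, and Hoxb5 at 0, 0, 5.10 and 1.23 CPM. Hoxb1 and Hoxb13, at the opposite ends of the cluster, were the members on the other side: Hoxb1, the most 3′ gene, stood at 2.12 CPM in library 1 and 3.17 CPM in library 2, and Hoxb13 at 0.605 and 1.28 CPM, both short of 2-fold with the prior count.

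Hoxc8, a trunk gene, had the lowest log2 ratio of the named genes, -3.36. Its counts were 0, 0, 239 and 23, which made library 1 11.1-fold higher (7.22 to 17.8). Hoxc9 stood at 3.73 and 0.425 CPM in libraries 1 and 2, Hoxc5 at 4.16 and 0.546 CPM and Hoxc6 at 10.7 and 2.32 CPM. The exception in this cluster was Hoxc13, the most 5′ gene, which stood at 1.05, 3.36, 2.83 and 2.98 CPM and so was also transcribed in the controls. All 7 HOXC genes lie on distal chromosome 15, where the median gene was also lower in library 2 (log2 ratio -0.38). HOXD had 1 gene at the floor, Hoxd13, at 0.351, 1.16, 2.17 and 1.42 CPM.

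In HOXA the 5′ end differed from the rest. Anterior and middle genes were lower in library 2: Hoxa4 stood at 12.6 and 5.11 CPM in libraries 1 and 2 (2.46-fold higher in library 1, 1.96 to 3.11) and Hoxa7 at 66.6 and 31.4 CPM (2.12-fold, 1.93 to 2.33). Hoxa10, next to Hoxa9, stood at 46.8 and 49.5 CPM, a ratio of 1.06. Hoxa11, further 5′, stood at 4.19 and 8.79 CPM and was 2.10-fold higher in library 2 (1.61 to 2.75). With TMM or DESeq2 scaling or with the deposited TPM Hoxa11 came out just short of 2-fold (log2 0.97, 0.98 and 0.96). Expected counts of Hoxa2, Hoxa3, Hoxc5 and Hoxc10 were not whole numbers, so reads at these genes were shared out with other genes.

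The TALE homeodomain proteins Meis1 and Meis2 bind DNA together with HOX proteins, and MEIS1 is the partner of HOXA9 in leukaemia. Meis1 stood at 1.10, 0.841, 14.2 and 3.73 CPM (3.80-fold higher in library 1, 2.95 to 4.94) and Meis2 at 2.10, 1.37, 12.9 and 4.96 CPM (2.59-fold, 2.06 to 3.28). These were the 2 of 9 cofactor genes past 2-fold, with 0 higher in library 2. Among 15 genes linked to HOXA9 in leukaemia, Meis1 and Eya1 were the 2 that were lower in library 2. Eya1, a phosphatase and coactivator, stood at 6.31, 5.31, 28.5 and 11.6 CPM, above both controls in both fusion libraries.

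The genes of the caudal axis, which specify the posterior end of the embryo and act upstream of HOX, were lower in library 2 in 4 of 8 cases and higher in 0, with a median log2 ratio of -1.13. Cdx1, a caudal homeobox factor, stood at 1.05, 0.526, 116 and 44.3 CPM, 2.63-fold higher in library 1 (2.43 to 2.84). Its relative Cdx2 stood at 0.902, 0.421, 8.93 and 2.79 CPM. Nkx1-2, a marker of neuromesodermal progenitors, stood at 0.651, 0.578, 10.8 and 2.65 CPM, 4.10-fold higher in library 1 (3.04 to 5.60), and Greb1 at 6.01, 8.73, 35.2 and 14.1 CPM. Both fusion libraries lay above both controls at these 4 genes except Greb1, where library 2 was less than 2-fold above the empty-vector library.

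Retinoic acid genes showed the same order. Aldh1a2 makes retinoic acid from retinaldehyde, Crabp2 carries it to its nuclear receptors, and Dhrs3 turns retinaldehyde back into retinol. Aldh1a2 stood at 3.46, 4.10, 381 and 113 CPM, so that library 1 was 3.38-fold higher (3.23 to 3.54). Crabp2 stood at 3.51, 5.78, 28.7 and 7.85 CPM (3.66-fold, 3.07 to 4.38) and Dhrs3 at 1.05, 1.21, 32.2 and 14.04 CPM. Nr2f2, an orphan receptor, had 23 counts in library 1 and 3 in library 2 (8.18-fold, 2.47 to 42.6). Of 21 genes in the list, 5 were lower in library 2 and 0 higher, with a median of -0.42. Cyp26a1, which degrades retinoic acid, stood at 2.00, 0.421, 11.3 and 11.0 CPM, the same in both fusion libraries within counting error.

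Target genes of BMP leaned the same way, with 4 of 12 lower in library 2 and 0 higher (median -0.41). Id1 and Id3, inhibitors of basic helix-loop-helix factors and direct targets of SMAD1 and SMAD5, stood at 24.2, 44.4, 102 and 31.1 CPM and at 22.1, 30.9, 58.3 and 25.8 CPM. In library 2 both were at the level of the controls, and only library 1 stood apart. The homeobox gene Msx1 stood at 0.651, 0.841, 9.38 and 1.47 CPM (6.403-fold higher in library 1, 4.36 to 9.69) and Msx2 at 1.75, 2.00, 25.2 and 7.90 CPM. Of 19 Wnt response genes 2 were higher and 4 lower, against 7.88% and 2.67% of all genes, and the list median of -0.23 came to 0.17 at a floor of 5 CPM and to 0.042 with the deposited TPM. Lef1, a Wnt effector, stood at 5.91, 35.3, 4.04 and 9.88 CPM, Sp5 at 2.51, 2.05, 2.42 and 0.693 CPM, and the ligand Wnt6 at 1.503, 1.79, 7.42 and 2.27 CPM.

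**Figure D2:**
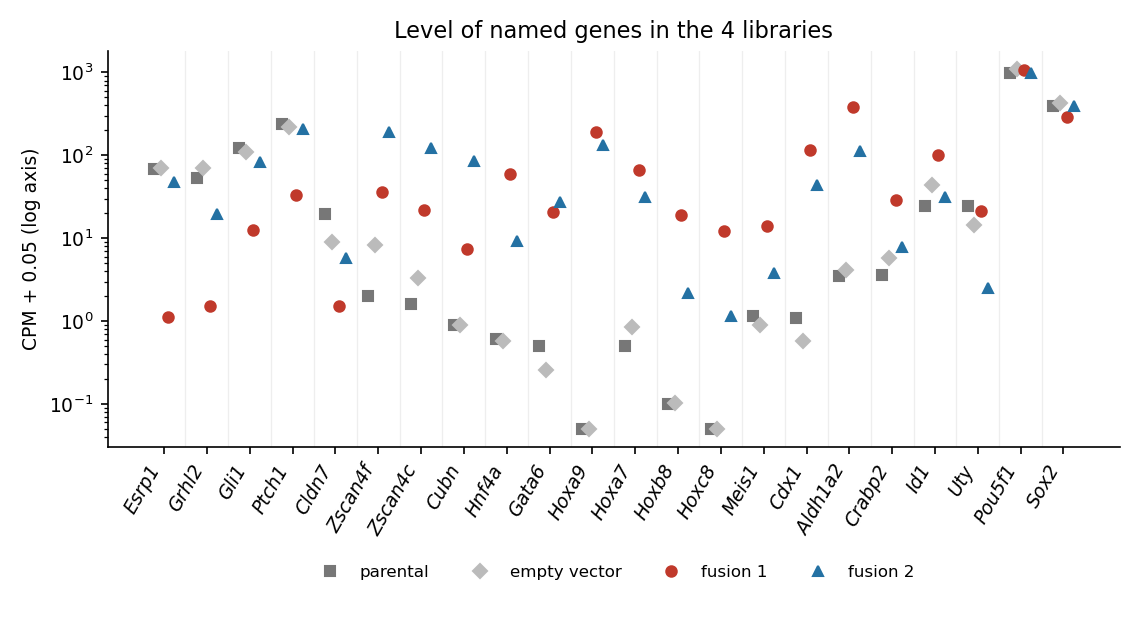
Points give the CPM plus 0.05, on a log axis, of 22 genes in the parental library (dark squares), the empty-vector library (light diamonds), fusion library 1 (red circles) and fusion library 2 (blue triangles). At Esrp1, Grhl2, Gli1, Ptch1 and Cldn7 library 1 lies below the other 3 libraries, while at Hoxb8, Hoxc8, Cdx1 and Aldh1a2 both fusion libraries lie above the controls and library 1 is the highest.

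The 2-cell-like genes formed the most uniform group in the other direction. Of 21 such genes at the floor, 20 were at least 2-fold higher in library 2 and 0 lower, and all 21 had a log2 ratio above 0, with a median of 2.22. Summed over the list, the level was 13.8 CPM in the parental library, 59.3 CPM with the empty vector, 140 CPM in fusion library 1 and 707 CPM in fusion library 2. The controls differed here too, with all 9 genes at the floor in a control library 2-fold higher with the empty vector, though 5 of the 9 were under 1 CPM in the parental library and so had to differ. At 20 of the 21 genes the level was lowest in the parental library, then the empty-vector library, then fusion library 1 and highest in fusion library 2. The exception was Zfp750. In library 1, 17 of the 21 genes stood at least 2-fold above both controls, and in library 2, 20 did. Over all genes the shares were 9.56% and 9.39%. Only 9 listed genes reached the floor in a control library. Part of the 21 were thus members only through the fusion libraries where they are high, so these 2 counts add no support.

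Zscan4f, a zinc finger and SCAN domain protein of the 2-cell stage, stood at 1.98, 8.28, 36.4 and 192 CPM. Zscan4c, which is needed for telomere upkeep in stem cells, stood at 1.58, 3.28, 22.1 and 122 CPM. Duxf3, the homeobox factor that switches on this programme, stood at 0, 0.141, 0.674 and 4.23 CPM, a ratio of 6.28 between the fusion libraries. The ratio of library 2 to library 1 was 5.99 for Zscan4e (5.32 to 6.76), 5.75 for Zscan4a (5.07 to 6.54), 6.42 for the deubiquitinase gene Usp17le (4.63 to 8.95) and 6.09 for Pramef25 (3.84 to 10.2). The pseudogene Zscan4-ps1 stood at 0.252, 0.754, 4.15 and 28.9 CPM, a ratio of 6.98 (5.55 to 8.92). Lower in the list, Zfp352 stood at 1.34 and 1.84 CPM in the fusion libraries, short of 2-fold, and Zfp750 at 4.66, 29.9, 2.93 and 7.75 CPM, where the empty-vector library was the highest.

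Copies of Zscan4 are nearly identical in sequence, and only 2 of the 21 genes had whole expected counts in both fusion libraries, so the split of reads among copies is uncertain while their sum is less so. The promoter windows of Zscan4b (chr7:10905001-10905300, minus strand) and Zscan4f (chr7:11397665-11397964, plus strand), from RefSeq on GRCm38.p6, are shown as an example of the likeness of copies. Most of each window lies before the start of the gene, so the windows do not show how reads are split. Each runs from 250 bases before the start of the gene to 50 bases after it, and 287 of the 300 bases are the same. Capitals mark the 13 that differ.
Zscan4b: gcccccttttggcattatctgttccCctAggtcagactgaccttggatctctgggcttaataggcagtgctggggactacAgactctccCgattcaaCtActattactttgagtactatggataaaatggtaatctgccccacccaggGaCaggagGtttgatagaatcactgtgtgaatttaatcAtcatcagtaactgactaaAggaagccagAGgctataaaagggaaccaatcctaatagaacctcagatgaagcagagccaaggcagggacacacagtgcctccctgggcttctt
Zscan4f: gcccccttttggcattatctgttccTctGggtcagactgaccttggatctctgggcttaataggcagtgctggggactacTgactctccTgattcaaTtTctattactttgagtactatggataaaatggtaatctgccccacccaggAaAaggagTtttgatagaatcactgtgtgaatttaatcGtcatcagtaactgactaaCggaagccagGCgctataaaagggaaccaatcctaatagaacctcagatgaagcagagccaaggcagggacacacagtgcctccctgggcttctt
The level of Zscan4b was 0.404, 2.12, 9.34 and 39.0 CPM, in the same order over the libraries as that of Zscan4f.

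Among genes of 10 CPM or more with a symbol that is not a model identifier, the highest log2 ratio, 5.36, was that of Esrp1 (chromosome 4, 11331933 to 11386783, minus strand), an RNA-binding protein that sets epithelial patterns of splicing. It had 1375, 1330, 21 and 1004 counts, or 68.9, 69.9, 1.06 and 47.5 CPM. Library 2 was 44.8-fold higher than library 1 (interval 29.1 to 72.7) and close to the controls. Grhl2 (chromosome 15, 37233036 to 37363569, plus strand), a grainyhead transcription factor of epithelia, had 1077, 1345, 29 and 417 counts, or 54.0, 70.7, 1.46 and 19.7 CPM, a ratio of 13.5 (9.24 to 20.4). It lies on chromosome 15 before the distal part. For Esrp1 library 1 alone stood apart from the controls, and for Grhl2 library 1 stood furthest below them. Of the genes at the floor, 2 had a higher log2 ratio than Esrp1 and are named here after their values were seen. The gene model Gm12191 stood at 3.16, 29.4, 0.322 and 54.9 CPM (log2 ratio 7.03) and was far apart in the control pair too, and Pakap, which has 0 counts in library 1, stood at 4.88, 3.54, 0 and 6.49 CPM.

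A list of 34 epithelial junction and splicing genes was drawn up after these values were seen, so its count is a description. Of 33 at the floor, 17 were 2-fold higher in library 2 and 1 lower, with a median of 1.04. Fusion library 1 was at least 2-fold below both controls at 21 of the 33 and library 2 at 6, against 5.4% and 1.61% of all genes. The sum over the list, which abundant members set, was 2308, 2021, 1754 and 1845 CPM and so nearly equal in the fusion libraries. Tight junction proteins were among them: Cldn7 stood at 19.3, 8.88, 1.46 and 5.77 CPM (3.94-fold higher in library 2, 2.61 to 6.13), Ocln at 9.52, 7.73, 2.02 and 6.24 CPM and Tjp3 at 35.2, 24.5, 6.46 and 21.1 CPM. The adhesion molecule Epcam stood at 123, 110, 36.8 and 78.1 CPM and Cldn6 at 108, 76.7, 18.0 and 37.2 CPM, although under TMM scaling their log2 ratios came to 1.00 and 0.96, just short of 2-fold. Mal2, a trafficking protein of polarised cells on distal chromosome 15, had 2 counts in library 1 and 24 in library 2 (11.2-fold, 2.79 to 98.2).

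Not all epithelial genes followed. E-cadherin, Cdh1, stood at 620, 491, 232 and 330 CPM, a ratio of 1.42. The keratin genes Krt8 and Krt18 went the other way, at 86.5, 20.4, 152 and 60.3 CPM and at 45.4, 12.2, 65.0 and 34.99 CPM, and both lie on distal chromosome 15. Mesenchymal factors, also listed after the values were seen, had 0 of 9 higher and 1 lower in library 2. Vimentin, Vim, stood at 100, 150, 244 and 181 CPM, fibronectin, Fn1, at 1636, 1620, 1076 and 1347 CPM, and the repressor Zeb1, which opposes Esrp1 and Grhl2 in other cells, at 9.37, 11.4, 33.6 and 27.5 CPM. Twist1, the lower one, stood at 1.75, 1.68, 3.28 and 1.32 CPM. In the list of cell adhesion genes, 4 of 23 were higher in library 2 and 0 lower. That list shares members with the epithelial one, among them Cldn6, Cldn7, Epcam and Ocln, so its count is not a separate result.

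Grainyhead factors bind DNA at sites of the form AACNGGTT. These letters, on either strand, were looked for in the promoter windows of the epithelial genes because Grhl2 was among the most different genes, and the search was chosen after its values were seen. Of the 34 genes 21 had a window in the RefSeq table, 27 windows in all, and 4 windows of 3 genes held the motif. The motif was present in 686 (2.09%) of all 32851 RefSeq windows. The matches are shown with capitals on the motif, each within 60 bases of GRCm38.p6 on the minus strand: Cgn at chr3:94786478-94786537, Prom1 at chr5:44094780-44094839 and at chr5:44101825-44101884, and Rab25 at chr3:88548348-88548407.
Cgn: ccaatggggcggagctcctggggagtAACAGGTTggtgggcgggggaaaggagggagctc
Prom1, first window: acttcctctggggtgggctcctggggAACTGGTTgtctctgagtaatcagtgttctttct
Prom1, second window: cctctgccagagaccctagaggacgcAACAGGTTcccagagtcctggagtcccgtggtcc
Rab25: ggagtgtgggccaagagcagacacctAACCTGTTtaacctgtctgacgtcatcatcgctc
Cgn, which encodes the tight junction protein cingulin, stood at 97.5, 68.6, 30.1 and 72.8 CPM. Prom1, prominin of membrane protrusions, stood at 22.4, 15.9, 3.08 and 7.94 CPM, and Rab25, a trafficking GTPase of epithelia, at 10.3, 10.7, 1.46 and 3.83 CPM. All 3 were lowest in fusion library 1. Their list was drawn up after the values were seen, and 21 of its 33 members were at least 2-fold below both controls there. The placement of the 3 thus says nothing particular about the motif. A match of letters is a description and does not show binding.

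Hedgehog targets showed the same placement as Esrp1. Gli1 is a transcription factor and Ptch1 the receptor of Hedgehog ligands, and both are direct targets whose RNA reports on the activity of the pathway. Gli1 stood at 122, 110, 12.5 and 83.5 CPM, a ratio of 6.70 (5.86 to 7.69), and Ptch1 at 242, 218, 32.9 and 207 CPM, a ratio of 6.30 (5.80 to 6.85). Other components were close in both fusion libraries: the transducer Smo stood at 42.5 and 43.2 CPM in libraries 1 and 2, the inhibitor Sufu at 39.8 and 33.1 CPM, and Gli3 at 22.4 and 19.8 CPM. Gas1, a coreceptor, was the 1 of 16 that was lower in library 2, at 1.80, 1.95, 11.9 and 5.67 CPM. Gli1 and Ptch1 were the 2 higher ones, so the list as a whole had a median of -0.11. It was drawn up after the values of Gli1 were seen.

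**Figure D3:**
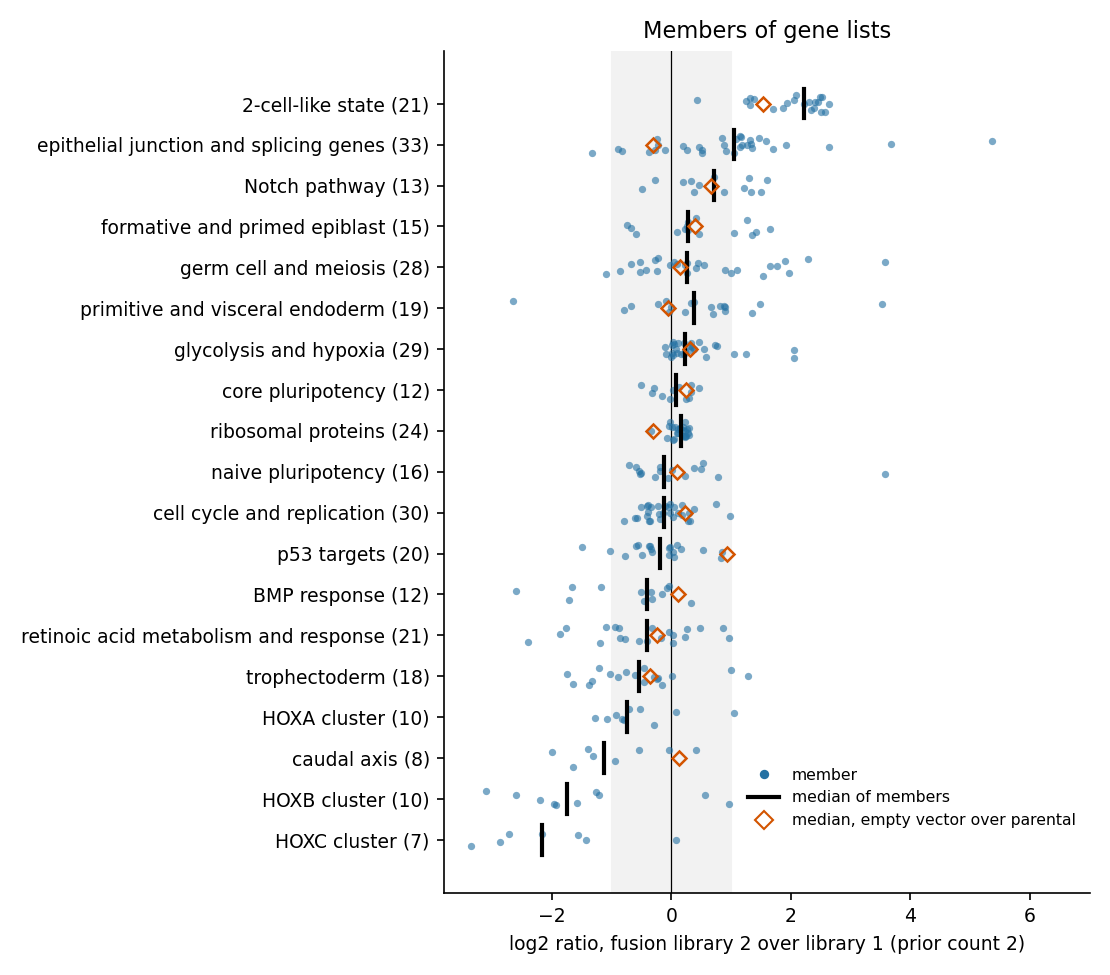
Each blue point is a member at the floor of the list named at the left, with the number of members in brackets, placed by its log2 ratio of fusion library 2 to library 1. The black bar is the median of the members, the open diamond the median of the list for empty vector over parental where at least 5 members reached the floor, and the grey band a difference of less than 2-fold. The 2-cell-like genes lie to the right of 0 as a whole, and the HOXB and HOXC genes mostly to the left of the band.

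Many endoderm genes that were low in the controls stood above them in both fusion libraries. In each, 13 of 19 were at least 2-fold above both controls, where 9.56% of all genes were in library 1 and 9.39% in library 2. The other 6 of the 25 listed genes lay under the floor in both fusion libraries. Only 10 members reached the floor in a control library, so part of the 19 were members only through the fusion libraries where they are high. Lrp2 and Apoe did not share this, and the sum over the list was 914, 895, 565 and 945 CPM, lowest in library 1. Gata6, the factor that starts primitive endoderm, stood at 0.451, 0.210, 20.8 and 27.0 CPM, Gata4 at 2.46, 1.31, 27.5 and 26.9 CPM and Sox17 at 0, 0.158, 7.013 and 6.997 CPM. These 3 founding factors were thus within 1.5-fold of each other in the fusion libraries. The receptor complex of the visceral endoderm was higher in library 2: cubilin, Cubn, stood at 0.852, 0.841, 7.32 and 85.2 CPM, a ratio of 11.6 (9.83 to 13.9). Its partner amnionless, Amn, stood at 0.852, 0.368, 2.52 and 7.23 CPM (2.87-fold, 2.07 to 4.03), and megalin, Lrp2, at 108, 99.9, 57.7 and 147 CPM (2.56-fold, 2.39 to 2.74). Hnf4a, a nuclear receptor of visceral endoderm and liver, went the other way at 0.551, 0.526, 59.1 and 9.31 CPM, 6.35-fold higher in library 1 (5.46 to 7.42). Over the list, 3 of 19 genes were higher in library 2 and 1 lower, with a median of 0.38. Over all genes 7.88% were higher and 2.67% lower. Basement membrane genes, another product of endoderm, had 0 of 19 past 2-fold. Lamc1, a laminin chain, stood at 423, 430, 791 and 672 CPM.

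Trophectoderm genes leaned toward library 1, with 6 of 18 lower in library 2, 1 higher and a median of -0.53. Eomes, a T-box factor of trophoblast and mesendoderm, stood at 12.5, 6.57, 34.4 and 13.2 CPM (2.60-fold higher in library 1, 2.26 to 3.01). Gata3, a trophoblast factor, stood at 0.501, 0.315, 2.77 and 0.756 CPM, and the placental imprinted gene Peg10 at 568, 444, 2159 and 937 CPM. Fgfr2, the growth factor receptor, was the higher one at 29.2, 23.5, 14.2 and 34.6 CPM. Of the 18 genes, 3 lie on distal chromosome 15, and without them 5 of 15 were lower.

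Mesoderm genes were few and low, and most stood lower in library 2: 9 of 12 log2 ratios were below 0, with a median of -0.63, and the sum was 76.3 CPM in library 1 and 45.6 CPM in library 2. Past 2-fold, 2 were lower, Eomes and Twist1, and 3 were higher. Among the higher ones, Fgf8, a growth factor of the primitive streak, stood at 2.71, 1.10, 0.505 and 1.75 CPM, and Tbx6, which commits cells to paraxial mesoderm, at 0.852, 0.683, 0.555 and 1.89 CPM. Neural genes had 5 of 13 higher and 1 lower, against 7.88% and 2.67% of all genes. Their median was 0.22, and 0.42 in the control pair. At a floor of 5 CPM 2 of 10 were higher and 1 lower, and with the deposited TPM 3 of 13 were higher and 1 lower. Pax6, a homeobox factor of the neural tube and eye, stood at 8.17, 5.10, 0.555 and 2.74 CPM and Neurod1, a proneural factor, at 5.51, 41.1, 1.16 and 4.21 CPM. Library 1 was the lowest of the 4 libraries at Fgf8, Tbx6, Pax6 and Neurod1, and the empty-vector library was 2-fold or more off the parental one for Fgf8 and Neurod1. Pax6 was short of 2-fold with the deposited TPM (log2 0.68).

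Genes of blood and endothelium had 3 of 12 higher in library 2 and 0 lower, against 7.88% and 2.67% of all genes. With TMM scaling 2 of 12 were higher. The other 10 of the 22 listed genes lay under the floor in both fusion libraries. Runx1, a master factor of blood formation, stood at 1.503, 0.683, 3.78 and 10.4 CPM (2.75-fold, 2.11 to 3.62). Srgn, a proteoglycan of blood cell granules, stood at 0, 0.105, 9.79 and 25.01 CPM (2.56-fold, 2.16 to 3.03), and the adhesion molecule Pecam1, which stem cells also express, at 79.4, 64.5, 58.4 and 123 CPM. Fibroblast and smooth muscle genes had 3 of 15 higher and 0 lower, against 7.88% and 2.67% of all genes. With TMM or DESeq2 scaling 2 of 15 were higher. Acta2, smooth muscle actin, stood at 8.82, 6.36, 4.29 and 14.5 CPM. The myosin light chain Myl9 stood at 5.26, 0.999, 0.605 and 1.65 CPM, and Thy1 at 14.2, 9.94, 7.62 and 15.7 CPM. The summed level of that list was 605, 428, 606 and 561 CPM, no wider apart in the fusion pair than between the controls.

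Pluripotency genes were close in both fusion libraries. Of 12 core genes 0 were past 2-fold, and of 16 naive genes 1 was. Pou5f1, the central factor, stood at 980, 1109, 1084 and 975 CPM, and the corepressor Trim28 at 1739, 2131, 2690 and 1895 CPM. Nanog stood at 302, 485, 1047 and 716 CPM and Dppa5a at 1234, 1268, 1222 and 1758 CPM. The exception among naive genes was Dppa3, a maternal factor that protects methylation marks in the zygote and also a germ cell gene, at 37.3, 23.5, 0.605 and 8.30 CPM, a ratio of 13.7 (7.63 to 27.0). It was below both controls in both fusion libraries. Expected counts of Dppa3 were not all whole numbers, so reads at this gene were shared out with other genes, which the interval does not cover.

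Formative and primed genes, which mark the step out of naive pluripotency, had 5 of 15 higher in library 2 and 0 lower. Otx2, the homeobox factor of that step, stood at 58.9, 77.3, 3.68 and 11.8 CPM (3.21-fold, 2.46 to 4.22) and the ligand Fgf5 at 11.5, 4.68, 0.454 and 1.37 CPM. Both were below the controls in both fusion libraries and lowest in library 1. Dnmt3a, a de novo DNA methyltransferase, stood at 162, 181, 72.8 and 186 CPM, so that library 2 matched the controls and library 1 did not. In the DNA methylation list, Dnmt3a was the 1 of 10 past 2-fold. Uhrf1 and Dnmt1, which copy methylation after replication, stood at 979 and 575 CPM and at 533 and 429 CPM in libraries 1 and 2.

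Germ cell and meiosis genes had 8 of 28 higher in library 2 and 1 lower. Prdm1, the repressor that founds the germ line, stood at 37.7, 30.1, 1.82 and 7.42 CPM (4.09-fold, 2.83 to 6.05). Sycp3, of the synaptonemal complex, stood at 20.8, 13.6, 4.79 and 18.1 CPM (3.77-fold, 3.002 to 4.77), and the X-linked homeobox gene Rhox9 at 2.92, 2.29, 1.39 and 7.13 CPM. Imprinted genes had 2 of 31 higher and 4 lower, against 7.88% and 2.67% of all genes. The Notch-like ligand Dlk1 stood at 2.56, 1.95, 18.97 and 5.30 CPM, the long RNA H19 at 1.95, 0.631, 2.88 and 8.94 CPM, and Usp29 at 3.56, 4.89, 2.52 and 6.62 CPM.

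Among signalling lists the Notch pathway had 5 of 13 genes higher in library 2 and 0 lower, with a median of 0.71. Its median in the control pair was 0.66, with 4 of 13 higher. The ligand Dll1 stood at 5.56, 36.6, 4.09 and 12.6 CPM and was 2-fold apart in both pairs, the ligand Dll3 stood at 7.77, 12.4, 1.87 and 4.73 CPM, the receptor Notch4 at 15.3, 34.6, 15.99 and 45.15 CPM, and the target Hey1 at 7.72, 5.10, 1.72 and 4.49 CPM. With the deposited TPM, Dll3, Notch4 and Hey1 were short of 2-fold (log2 0.85, 0.81 and 0.85). Library 1 was the lowest at Dll1, Dll3 and Hey1.

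The response to FGF and ERK had 4 of 20 genes higher and 1 lower in library 2. The immediate early factor Egr1 stood at 113, 157, 19.12 and 59.5 CPM (3.11-fold, 2.77 to 3.498), Fgf15 at 20.5, 24.3, 2.07 and 11.2 CPM (5.42-fold, 3.88 to 7.74) and the phosphatase Dusp4 at 93.9, 20.3, 20.7 and 49.6 CPM. Of 15 immediate early genes 1, Egr1, was higher in library 2 and 3 were lower: Fos stood at 15.7, 22.9, 16.4 and 8.04 CPM, Fosb at 3.81, 4.47, 4.24 and 1.61 CPM, and Myc, on distal chromosome 15, at 41.4, 57.1, 105 and 51.1 CPM. With the deposited TPM, Fos and Fosb were short of 2-fold (log2 -0.92 and -0.94) and Myc alone was lower. Fos is also the 1 lower gene of the FGF and ERK list.

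Of 15 genes of the LIF and STAT3 response 1 was higher and 1 lower: Socs2, a feedback inhibitor, stood at 104, 114, 20.03 and 46.5 CPM and Bcl3, a coactivator of NF-kappaB, at 12.6, 13.0, 41.2 and 17.7 CPM. Nodal and TGF-beta genes also had 1 of 15 each way, with the Nodal inhibitor Lefty1 at 152, 117, 56.6 and 139 CPM and follistatin, Fst, at 4.16, 4.36, 7.92 and 2.27 CPM. At Lefty1, Bcl3 and Fst library 2 stood within 2-fold of both controls. YAP and TEAD genes had 0 of 12 higher and 1 lower. Over all genes 7.88% were higher and 2.67% lower, so the counts of these short lists are near the background. Tead1, the DNA-binding partner of YAP, stood at 292 and 268 CPM in libraries 1 and 2, and Ajuba at 177 and 133 CPM.

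Metabolic and stress lists differed little. Glycolysis and hypoxia genes had 4 of 29 higher and 0 lower, against 7.88% and 2.67% of all genes. With TMM or DESeq2 scaling 3 of 29 were higher. By library totals 26 of 29 log2 ratios were above 0 and 3 below, with a median of 0.22, where 44.8% of all genes lay below 0. Egln3, an oxygen sensor induced by hypoxia, stood at 29.7, 31.2, 15.5 and 64.3 CPM (4.14-fold, 3.66 to 4.70), the mitophagy gene Bnip3 at 90.9, 200, 137 and 325 CPM, the vascular peptide Adm at 0.651, 1.10, 0.908 and 4.07 CPM, and phosphofructokinase Pfkp at 450, 494, 263 and 545 CPM. Glycine decarboxylase, Gldc, a one-carbon enzyme high in naive stem cells, stood at 452, 352, 39.6 and 177 CPM, a ratio of 4.46 (4.13 to 4.82). In that list of 18 genes 1 more was past 2-fold, Bhmt, at 0, 0.0526, 6.86 and 2.42 CPM. Gldc was the lowest in library 1 and below both controls in library 2 as well.

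Targets of p53 had 0 of 20 higher and 2 lower in the fusion pair, against 10 of 20 higher in the control pair. Perp, a p53-induced membrane protein, stood at 18.4, 41.3, 59.6 and 20.99 CPM, and the death receptor Fas had 21 counts in library 1 and 10 in library 2 (2.24-fold, 1.01 to 5.33). Cholesterol and fatty acid synthesis, with 9 of 25 genes 2-fold lower in the empty-vector library than in the parental one, had 1 of 25 higher and 0 lower in the fusion pair. Its most abundant genes, Scd2 and Fasn, stood at 1001 and 929 CPM and at 764 and 565 CPM in libraries 1 and 2. These lists separated the controls more than the fusion libraries.

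Interferon and nucleic acid sensing genes had 4 of 17 higher and 0 lower in library 2, against 7.88% and 2.67% of all genes. The list as a whole did not lean: 8 log2 ratios were above 0 and 9 below, with a median of -0.009. Its sum was 796 CPM in library 1 and 763 CPM in library 2. At a floor of 5 CPM 2 of 13 were higher. The DNA sensor Aim2 stood at 19.5, 19.03, 1.31 and 3.59 CPM, tetherin, Bst2, at 53.9, 23.4, 10.8 and 25.9 CPM, Oasl2 at 2.51, 0.631, 0.605 and 1.47 CPM and the class I antigen H2-K1 at 53.3, 20.98, 21.7 and 47.6 CPM. At Bst2, Oasl2 and H2-K1 the parental library was the highest. Unfolded protein and amino acid stress genes had 3 of 23 higher and 0 lower, against 7.88% and 2.67% of all genes. With TMM or DESeq2 scaling 2 of 23 were higher, so the count is near the background. Ddit3, a stress factor that promotes cell death, stood at 8.27, 5.73, 8.73 and 18.8 CPM. Chac1, which degrades glutathione, stood at 14.1, 4.68, 6.66 and 13.7 CPM, and the receptor Vldlr at 5.36, 2.63, 5.35 and 11.6 CPM.

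Several large cellular systems had 0 genes past 2-fold in the fusion pair: 14 heat shock genes, 15 oxidative stress genes, 23 nuclear genes of oxidative phosphorylation, 24 ribosomal protein genes, 30 cell cycle genes, 28 Polycomb and MLL genes and 29 nucleoporins and exportins. Many of these genes are abundant, and of all genes above 100 CPM only 1.26% were 2-fold apart, so a count of 0 in lists of this size is near the background and says nothing particular about them. The chaperone Hsp90ab1 stood at 6234 and 6438 CPM in libraries 1 and 2, Hsp90aa1 at 4481 and 4217 CPM, the antioxidant Prdx1 at 1026 and 974 CPM, and Gsta4 at 325 and 287 CPM. The ATP synthase subunits Atp5b and Atp5a1 stood at 1977 and 1890 CPM and at 1135 and 1107 CPM, the ribosomal proteins Rpl4 and Rpsa at 2450 and 2856 CPM and at 2409 and 2649 CPM, and the replication genes Top2a and Mcm5 at 800 and 861 CPM and at 705 and 464 CPM. Jarid2 and Phc1, of the Polycomb complexes that silence HOX clusters, stood at 530 and 699 CPM and at 522 and 619 CPM, and the transport receptors Kpnb1 and Xpo1, the latter a known partner of NUP98 fusions, at 855 and 845 CPM and at 464 and 426 CPM. The mitochondrial genome had 1 of 15 genes lower, and mt-Co1 and mt-Cytb stood at 8483 and 9563 CPM and at 3344 and 2448 CPM. Of replication-dependent histones, whose RNA lacks a poly(A) tail, 7 were at the floor and 2 higher, Hist2h3c1 and Hist1h1d, at 0.0928 and 2.22 CPM and at 0.594 and 1.42 CPM.

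Outside the lists, the highest ratios at 10 CPM or more often belonged to genes that were lowest in library 1. Tbc1d9 stood at 35.2, 24.7, 1.01 and 13.9 CPM (13.7-fold, 8.73 to 22.8), Cds1, an enzyme of phosphatidylinositol synthesis, at 25.3, 26.5, 1.72 and 17.3 CPM (10.1-fold, 7.09 to 14.8) and the phosphodiesterase Pde2a at 9.27, 12.7, 1.67 and 15.1 CPM (9.04-fold, 6.34 to 13.4). Dtna, of the dystrophin complex, stood at 33.8, 37.9, 2.32 and 16.8 CPM, Depdc1a at 28.2, 25.2, 3.28 and 21.9 CPM and the X-linked ubiquitin ligase adaptor Klhl13 at 218, 168, 26.4 and 168 CPM. All 6 were lowest in library 1, and all but Dtna and Tbc1d9 were within 2-fold of both controls in library 2. Cphx3, a homeobox gene of the early embryo, was low in the controls instead, at 0.135, 0.167, 1.13 and 10.6 CPM. Its relative Cphx1 went the other way, at 2.64, 3.56, 42.3 and 5.65 CPM (7.49-fold higher in library 1, 6.20 to 9.20). Cphx2, which lies near both on chromosome 14, had a log2 ratio of -1.19. Expected counts of Cphx1 and Cphx3 were not all whole numbers, so reads were shared out with other genes. The split of reads among these relatives is uncertain, and the counting interval does not cover it.

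The lowest ratios mostly belonged to genes that were low in the controls and highest in library 1. Slc51a, a bile acid transporter subunit, stood at 0.200, 0, 26.1 and 3.78 CPM (6.90-fold higher in library 1, 5.44 to 8.84), the X-linked RNA-binding protein Zfp36l3 at 0.752, 1.05, 18.4 and 2.84 CPM, and Ppp1r14d at 0.301, 0.683, 32.9 and 6.43 CPM. Tshz1, a zinc finger homeobox factor, stood at 1.45, 0.631, 10.1 and 1.99 CPM, Cited4 at 0.802, 1.47, 13.6 and 2.84 CPM and Cdc42ep1, on distal chromosome 15, at 6.36, 2.10, 30.4 and 7.04 CPM. Library 2 lay between the controls and library 1 at each of these 6 genes.

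Uty was the exception among the lowest ratios. This Y-linked histone demethylase gene stood at 24.6, 14.2, 21.4 and 2.46 CPM, so that here library 2 stood apart (8.72-fold higher in library 1, 6.53 to 11.9). Other Y-linked genes differed less. Ddx3y, an RNA helicase, stood at 35.5, 24.8, 58.4 and 22.2 CPM (2.63-fold, 2.36 to 2.94), the translation factor gene Eif2s3y at 64.5, 39.0, 46.3 and 26.5 CPM, and Uba1y at 9.40, 3.27, 2.64 and 2.37 CPM. The ratios of these 4 genes thus differed from gene to gene. Xist, which silences an X chromosome in female cells, stood at 0.501, 2.32, 3.24 and 4.21 CPM.

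Chromosome 15 differed as a whole stretch. A single split, placed where it best separates the log2 ratios, fell between Nudcd1 (start 44373163) and Eny2 (start 44428042), with 118 genes before it and 483 after it. The median log2 ratio of library 2 to library 1 was 0.17 before and -0.38 after the split, and 357 of the 483 distal genes (73.9%) lay below 0, against 44.8% of all genes. Set against each control, the distal genes of library 1 had medians of 0.55 (parental) and 0.51 (empty vector) and those of library 2 0.12 and 0.09. It was library 1 whose distal genes were displaced from the controls, while the control pair itself had a median of 0.01 there. The split was chosen on these values, so it is a description, and its cause was not tested. Of the 483 genes 11 were 2-fold higher in library 2 and 42 lower, and without them the counts over all genes were 1202 and 369.

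The difference on distal chromosome 15 was small for most single genes. Among the most abundant, Tuba1b, a tubulin, stood at 2435, 2496, 3063 and 2238 CPM, Rpl8 at 2028, 1603, 2144 and 1697 CPM, the RNA-binding protein Hnrnpa1 at 1364, 1432, 1364 and 1015 CPM and Pcbp2 at 828, 728, 974 and 724 CPM. Eif4b, at 975 and 911 CPM in libraries 1 and 2, and Rpl3, at 1506 and 1831 CPM, did not share it. Past 2-fold, Prph, an intermediate filament protein, stood at 6.46, 6.89, 119 and 33.9 CPM (3.52-fold higher in library 1, 3.24 to 3.83) and the lectin Lgals1 at 70.9, 45.4, 268 and 94.98 CPM (2.82-fold, 2.68 to 2.97), beside Krt8 and Myc given above.

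**Figure D4:**
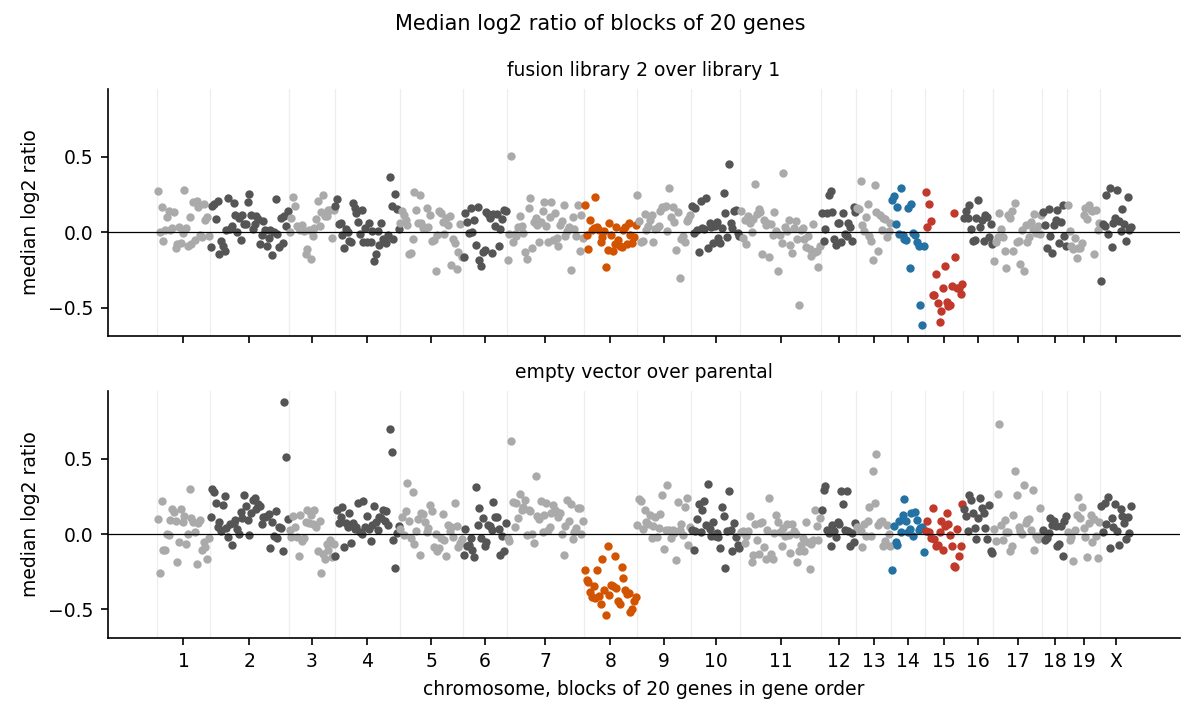
Each point is the median log2 ratio of a block of 20 consecutive genes with a mean of 5 CPM or more over the 4 libraries, in gene order along each chromosome. The upper panel shows fusion library 2 over library 1 and the lower one empty vector over parental, with chromosome 8 in orange, 14 in blue and 15 in red. Most blocks of chromosome 15 lie below -0.25 in the fusion pair only, and most of chromosome 8 in the control pair only.

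In 555 such blocks the median ran from -0.61 to 0.50 in the fusion pair, and 23 blocks were at -0.25 or lower. Of these 23, 15 were on chromosome 15, which has 22 blocks. In the control pair 26 blocks were at -0.25 or lower, 24 of them among the 30 blocks of chromosome 8. Each pair thus had 1 chromosome that made up most of its low blocks. The lowest block of the fusion pair lay elsewhere, on chromosome 14 from Naa16 to Uchl3 (-0.61). The highest was on chromosome 7 from Epp13 to Zfp606 (0.50) and was also high in the control pair (0.62).

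Past that block, the end of chromosome 14 stood the opposite way, in a run too short to fill its own block. From Tgds (start 118111911) onward there were 26 genes at the floor. All 26 had a log2 ratio above 0, 17 were 2-fold higher in library 2 and 0 lower, and the median was 1.15. In library 1 the medians were -0.77 against the parental and -1.09 against the empty-vector library, and in library 2 they were 0.23 and 0.20. Again the displaced library was library 1. Abcc4, an exporter of cyclic nucleotides, stood at 131, 94.7, 16.6 and 72.9 CPM (chr14:118482692-118706219, minus strand), Dock9 at 38.0, 36.1, 15.7 and 52.0 CPM, the import receptor Ipo5 at 864, 767, 499 and 776 CPM and Nalcn, a sodium leak channel gene, had 24, 39, 1 and 30 counts. Zic2 and Zic5, neighbouring zinc finger genes there, stood at 41.5, 74.97, 35.4 and 43.0 CPM and at 42.4, 58.0, 18.3 and 35.96 CPM. This stretch was picked after its values were seen, and its cause was not tested.

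**Figure D5:**
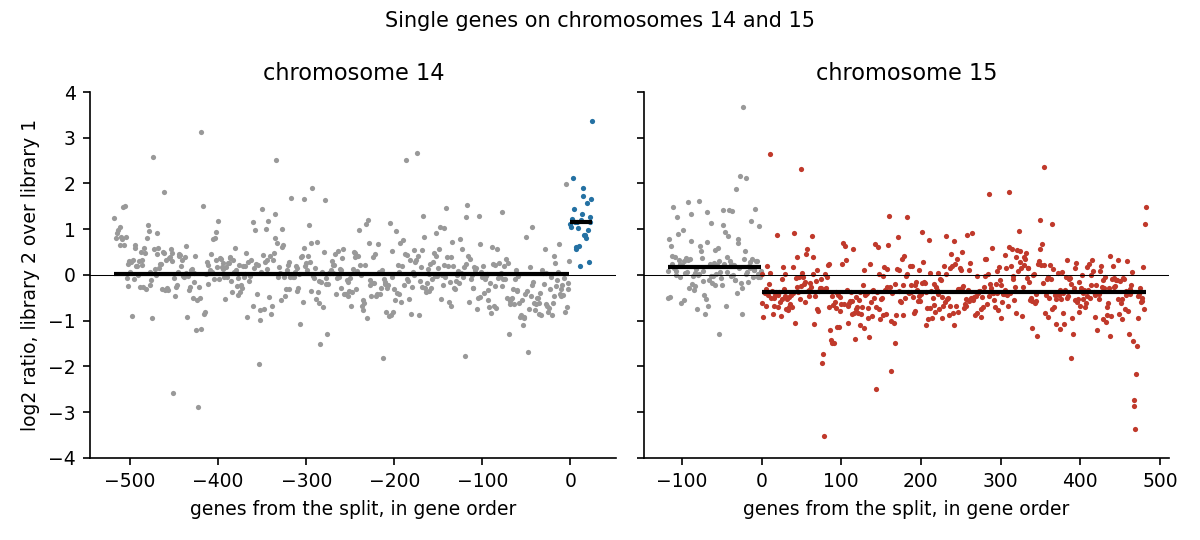
Each point is a gene at the floor on chromosome 14 (left) or 15 (right), placed in gene order counted from the split and by its log2 ratio of fusion library 2 to library 1. Grey points lie before the split, coloured points after it, and black bars are the medians of the 2 sides: 0.02 and 1.15 on chromosome 14, 0.17 and -0.38 on chromosome 15.

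Against both controls, the fusion libraries differed more in how many genes stood below them than above. Fusion library 1 had 1511 of 15805 genes at least 2-fold above both controls (9.56%) and 853 at least 2-fold below both (5.4%). Fusion library 2 had 1484 above (9.39%) and 254 below (1.61%). With a single control the counts were larger. Library 1 then had 1337 genes below the empty-vector library and 1310 below the parental one, and library 2 had 624 and 516, so the order of the lower counts held. The order of the higher counts turned: 2039 and 2275 genes stood above these controls in library 1, and 2163 and 2292 in library 2.

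The genes that separate the fusion libraries fell into these classes as follows. Of the 1213 genes higher in library 2, 372 (30.7%) were below both controls in library 1 and off neither side in library 2, as Esrp1, Gli1 and Ptch1 were. A further 208 were above both controls in library 2 alone, 132 were above both in both libraries, as the Zscan4 genes were, and 68 were below both in both, as Otx2 was. Of the 411 genes lower in library 2, 151 (36.7%) were above both controls in library 1 alone and 125 (30.4%) in both libraries, the class of Hoxb8 and Hoxc8. Only 27 were below both controls in library 2 alone, as Uty was. A further 1 of the 411 was below both controls in both libraries. In the remaining genes neither library was off both controls, or the libraries were off on opposite sides.

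Genes that separate the fusion pair were also found among those that separate the controls. The pairs share no library. Of 14257 genes at the floor in both pairs, 1189 were 2-fold apart in the fusion pair and 1110 in the control pair, and 264 in both, which is 22.2% of the first and 23.8% of the second. Over all 14257 genes, 8.34% were 2-fold apart in the fusion pair and 7.79% in the control pair. In 107 of them the direction was the same and in 157 it was opposite. S100a6, a calcium-binding protein, was the lower in empty vector and in library 2, at 27.9, 8.20, 25.1 and 7.09 CPM, as was Igfbp4, at 14.5, 5.15, 32.1 and 12.6 CPM. Zc3h11a was the higher in both, at 27.2, 116, 41.3 and 109 CPM. Gpx1, a glutathione peroxidase, went opposite ways at 77.7, 284, 311 and 87.6 CPM, as did the lysosomal protein Laptm5 at 42.2, 117, 386 and 109 CPM, the carbonic anhydrase Car4 at 16.5, 5.05, 5.65 and 14.1 CPM and the proline enzyme Pycr1 at 37.8, 15.6, 14.7 and 38.0 CPM.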

How the data were processed

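Per the labels' protocols, messenger RNA was sequenced in 4 stranded libraries. The authors deposited, per the file headers, gene tables of expected counts, TPM and FPKM. Per the submitters' processing notes the build was GRCm38/mm10 and the tools were STAR 2.7.10a, RSEM 1.3.3 and DESeq2 1.36.0. The strand setting and annotation release were not given in the sources used here. Deposited expected counts share out reads that map to several genes, and 9.16% to 10.18% of values are not whole. The deposited TPM, scaled by transcript length and depth, served as an alternative, and FPKM was not used.

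Symbols and positions came from GENCODE on GRCm38 for 55141 of 55401 identifiers (99.5%). Counts were scaled to CPM by library totals. A gene was called 2-fold apart at a log2 ratio of 1 or more, or -1 or less, with a prior count of 2. Intervals used the rounded counts of both libraries (exact Clopper-Pearson, 95%). The counting script was tested on simulated data. Chromosomes were split at the position with the smallest summed absolute deviation from the 2 medians, with at least 20 genes a side.

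Members and 47 gene lists were chosen with earlier results of these data known; 3 more lists (epithelial, mesenchymal, Hedgehog), the distal chromosome 14 stretch, the motif and the printed promoters were chosen after the values were seen. Genes were named by rule, leaving out model and clone identifiers: the 12 highest and 12 lowest ratios at 10 CPM or more, up to 4 members past 2-fold in a list (or 2 by level), the most abundant genes of distal chromosome 15, Hoxa9 and Nup98, and up to 4 genes apart in both pairs each way. Further genes named in the text, among them other members of the HOX, 2-cell-like, epithelial and Hedgehog lists, were added after their values were seen. Tools were python 3.11.15, pandas 2.3.3, scipy 1.17.1, matplotlib 3.10.9, and R 4.3.3 with edgeR 4.0.16 and DESeq2 1.42.0, the last 2 for scaling factors only. Alternatives were TMM and DESeq2 scaling, prior counts of 0.5 and 5, other floors, TPM, whole counts only, genes outside distal chromosomes 14 and 15, and 1 control at a time. Those on whole counts, on a mean of 5 CPM and on chromosome 14 were added after the data were seen. Some items of the lists and blocks are not reported here.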

Additional observations from a re-analysis of the deposited data

How the results depend on the processing

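The counts of 1213 higher and 411 lower genes moved by more than 1.5 times only with the floor: they were 553 and 222 at 5 CPM and 2539 and 1326 with no floor. Other settings gave 909 to 1279 higher and 311 to 508 lower genes, and library 2 held 67.0% of calls as higher under TMM and 67.9% under DESeq2 size factors, against 74.7% by library totals. These scalings took the median of all genes from 0.05 to -0.03 and -0.02 and that of distal chromosome 15 from -0.38 to -0.47 and -0.46, and that of distal chromosome 14 stayed between 0.92 and 1.16. List medians changed sign for neural ectoderm (-0.11) and fibroblast genes (-0.040) at a floor of 5 CPM, for the Wnt response at that floor (0.17) and with TPM (0.042), and for X inactivation and Y-linked genes with no floor (0.089). Those of ribosomal proteins with whole counts (-0.14, 2 genes left) and histones at 5 CPM (-0.38, 1 gene left) rest on too few genes; the cause of the others was not tested. Named genes gave 812 values on the same side of 2-fold and 33 short of it, with 0 changes of sign. Without the parental or the empty-vector library, 2039 and 2275 genes stood above the remaining control in fusion library 1 and 2163 and 2292 in fusion library 2, with 1337 and 1310, and 624 and 516, below it. No paired analysis was possible because the compared libraries are the 2 members of 1 group and each control is a single library. Depth limits genes near 1 CPM, about 20 counts, most, and 1 library a side leaves no measure of variation between cultures.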
